A study of Mus musculus with 54 samples.

Results

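Mrps12 is the gene that carries the mutations compared here, and its start lies head to head with that of Sars2 on mouse chromosome 7. The genes described are these 2 and 6 others beside them, chosen by name and position: Fbxo17, Nfkbib, Sirt2, Rinl, Hnrnpl and Ech1. They are 8 of the 54356 genes in the tables, lie within 115 kb of each other (chr7:28716804-28832247, GRCm38), and all 8 passed the filter on low values in both tissues, where 16057 genes of the heart and 15314 of the liver did. RNA had been sequenced from whole hearts and whole livers of C57BL/6 mice aged 20 weeks that were fed a high-fat diet (HFD) with 42% of its energy as fat. In all, 3 genotypes were compared, with 3 mice of each in each tissue: wild-type Mrps12+/+, the error-prone homozygote Mrps12ep/ep and the hyper-accurate homozygote Mrps12ha/ha. The mutants were bred from heterozygotes and matched by age and litter to the wild-type mice, so the alleles were present in every tissue from conception and all groups ate the HFD. The labels do not tie a heart to the liver of the same mouse. Each value is a normalized count, a gene's reads divided by the size factor of its library, and the 2 tissues were normalized separately.

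MRPS12 is a protein of the small subunit of the mitochondrial ribosome and sits at the decoding centre, where the match between codon and tRNA is read. SARS2 is the mitochondrial seryl-tRNA synthetase, which charges mitochondrial tRNAs with serine, so that the head-to-head genes encode proteins of the same translation machinery. Neighbouring genes that share a stretch of DNA between their starts are often called bidirectional, since transcription can run outwards from it in either direction.

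The codons changed in the mutants lie side by side in exon 3, the last exon of Mrps12, whose protein has 139 residues. K71T is the hyper-accurate change (ha) and K72I the error-prone change (ep), with residues counted from the first methionine. Codon 71 occupies chr7:28740076-28740078 and codon 72 chr7:28740073-28740075 on the minus strand of GRCm38. The wild-type coding sequence from codon 63 to codon 80 (chr7:28740049-28740102, GENCODE vM21) is shown on the coding strand with codons 71 and 72 in capitals, because these are the bases at which the genotypes differ by design.
Mrps12 codons 63 to 80: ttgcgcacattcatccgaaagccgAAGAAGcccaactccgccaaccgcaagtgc
Both codons are AAG in the reference. The tables hold counts per gene, so the alleles themselves were not read here.

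The stretch between the starts is shown for both divergent pairs, since it lies between the RefSeq starts of both members. In RefSeq the Mrps12 start is at 28741821 on the minus strand and the Sars2 start at 28741968 on the plus strand, which leaves 146 bases between them. In GENCODE vM21, the annotation used for the counts, the distance was 171 bases. Nfkbib (minus strand) and Sirt2 (plus strand) form a similar pair with 107 bases between their RefSeq starts. In GENCODE, by contrast, their annotated gene spans overlap by 778 bases on opposite strands. The authors counted with a strand-specific setting. Capitals mark CCAAT, read on the other strand as ATTGG, in the first stretch and CCATNTT on the other strand in the second.
Mrps12-Sars2, chr7:28741822-28741967, plus strand, GRCm38.p6: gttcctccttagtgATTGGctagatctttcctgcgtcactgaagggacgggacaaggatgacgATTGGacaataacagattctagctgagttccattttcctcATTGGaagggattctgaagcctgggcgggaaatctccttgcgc
Nfkbib-Sirt2, chr7:28766645-28766751, plus strand, GRCm38.p6: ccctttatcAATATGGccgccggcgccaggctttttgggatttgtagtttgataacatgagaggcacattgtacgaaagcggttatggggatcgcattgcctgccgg
CCAAT stood 3 times in the Mrps12-Sars2 stretch and was not found in the Nfkbib-Sirt2 stretch. In windows of 300 bases, from 250 before to 50 after each RefSeq start, the Mrps12 and Sars2 windows, which overlap each other, held 4 each, as did the Hnrnpl window. Over all 32851 such windows 37.4% held at least 1 CCAAT on either strand and 1.06% at least 4. The Sirt2 window held 2, each of the Fbxo17 windows 1, and the windows of Nfkbib, Rinl and Ech1 none. CCGGAA was found in the windows of Mrps12, Sars2 and Rinl and in 14.9% of all windows. CCATNTT was found in those of Mrps12, Sars2, Nfkbib, Sirt2 and Ech1 and in 16.1% of all. TATAA was found in the Hnrnpl window alone among the members, and in 24.9% of all windows. These counts describe letters and not binding.

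Depth and one library bear on what follows. The heart libraries held 11202864 to 51480512 reads and the liver libraries 21238166 to 81518015. The shallowest heart, Mrps12ha/ha mouse 2, also stood apart in its values: when it was left out, the genes past the threshold over the whole heart table went from 5 to 4330 for Mrps12ha/ha against Mrps12+/+. Heart results for Mrps12ha/ha are therefore given with and without it, and without it the Mrps12ha/ha group has only 2 mice. Cardiomyocyte markers (Myh6, Tnnt2, Tnni3, Actc1, Myl2 and Ryr2) summed to 1920978 to 3369372 in the hearts and 41.4 to 7439.3 in the livers, and hepatocyte markers (Alb, Apoa1, Ttr, Apob, Cps1 and Serpina1a) to 4005672 to 6016633 in the livers and 112.6 to 14131 in the hearts. In bulk tissue a different number of cells of one type and a different RNA content per cell cannot be told apart.

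No member passed the threshold, an adjusted p of 0.05 in the limma fit over all tested genes, in any of the 6 comparisons, and the fit with limma-voom on recovered reads called none either. In the heart 1 of 8 had an unadjusted p under 0.05 for Mrps12ha/ha against Mrps12+/+, 1 for Mrps12ep/ep against Mrps12+/+ and 2 for Mrps12ha/ha against Mrps12ep/ep, beside 19.7%, 1.69% and 17.9% of all heart genes. In the liver there was none, beside 14.1% of all genes for Mrps12ha/ha against Mrps12+/+, 9.74% for Mrps12ep/ep against Mrps12+/+ and 8.62% for Mrps12ha/ha against Mrps12ep/ep. At the adjusted threshold few genes passed at all. Of all tested heart genes 0.0311% were called for Mrps12ha/ha against Mrps12+/+, 0% for Mrps12ep/ep against Mrps12+/+ and 0.0249% for Mrps12ha/ha against Mrps12ep/ep, and in the liver 0.00653% in each comparison. Without Mrps12ha/ha mouse 2 the heart fit called 2 of 8 members against Mrps12+/+, Hnrnpl and Sirt2, where 27% of all genes were called. Against Mrps12ep/ep it called Hnrnpl, 1 of 8, where 23.2% of all genes were called. The share of members called was close to that of all genes in the first case and below it in the second. The values of every mouse are plotted gene by gene.

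**Figure D1:**
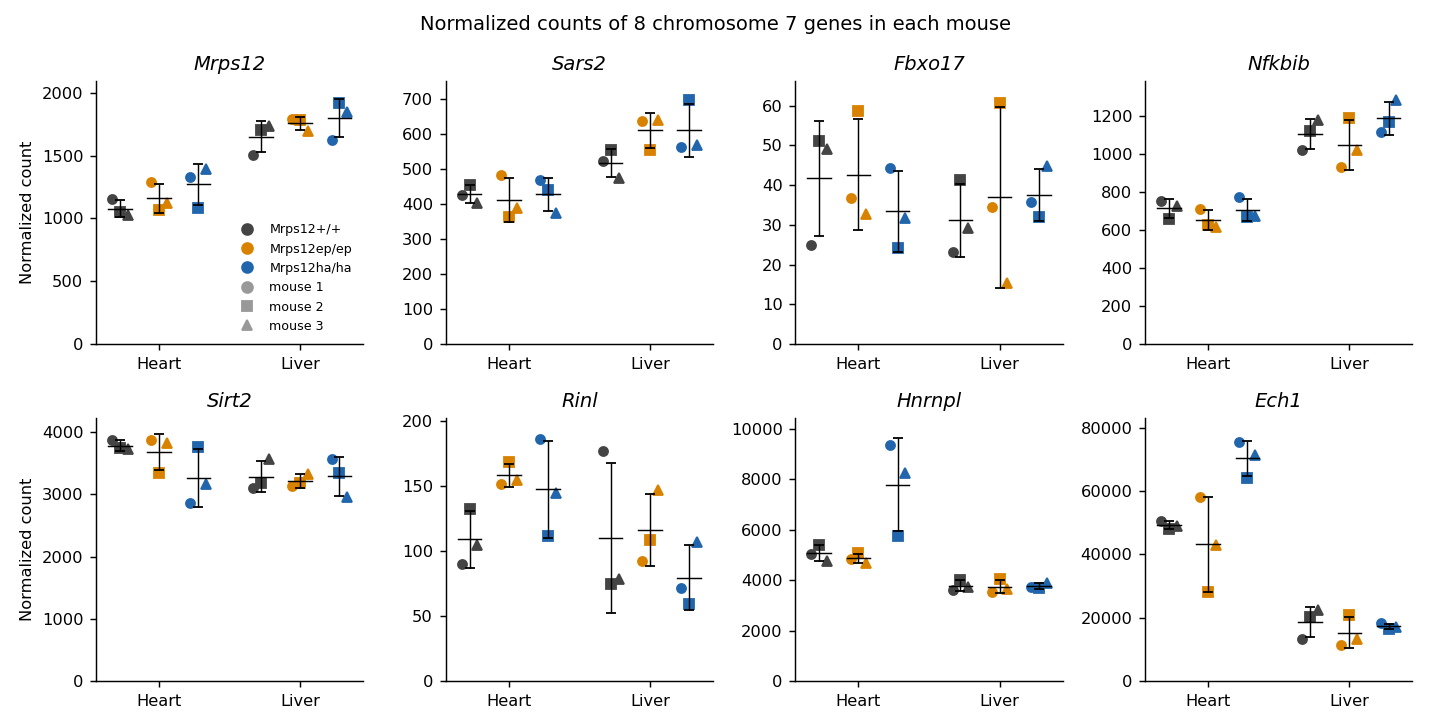
Normalized counts (vertical axes, from 0) of the 8 genes in each heart and liver, coloured by genotype, with a marker shape for each mouse number, and the mean ± SD of 3 mice. Hnrnpl and Ech1 in the heart are the panels in which all 3 Mrps12ha/ha mice lie above all other mice, and the liver groups of those genes overlap.

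Mrps12 itself was not lost or strongly altered at the RNA level in either mutant. Its heart values were 1156, 1052 and 1028 in Mrps12+/+ mice, 1292, 1066 and 1124 in Mrps12ep/ep mice and 1333, 1084 and 1397 in Mrps12ha/ha mice. The groups overlapped, with Mrps12ha/ha mouse 2 inside the wild-type range and the other Mrps12ha/ha mice above it. The log2 fold change on the log2(value + 1) scale was 0.23 ± 0.13 (SE; 95% interval -0.06 to 0.52, adjusted p = 0.324) for Mrps12ha/ha and 0.10 ± 0.13 (-0.19 to 0.40, adjusted p = 1) for Mrps12ep/ep against Mrps12+/+. Without mouse 2 the Mrps12ha/ha value was 0.34 ± 0.11 with an adjusted p of 0.0501, just outside the threshold. In the liver Mrps12 stood at 1508, 1707 and 1737 in Mrps12+/+ mice, 1791, 1780.2 and 1698 in Mrps12ep/ep mice and 1626, 1914.5 and 1847 in Mrps12ha/ha mice, again with overlap. Liver fold changes were 0.12 ± 0.10 (-0.10 to 0.34, adjusted p = 0.609) for Mrps12ha/ha and 0.09 ± 0.10 (-0.13 to 0.31, adjusted p = 0.773) for Mrps12ep/ep. Direct comparison of the mutants gave 0.13 ± 0.13 in the heart and 0.03 ± 0.10 in the liver.

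Sars2, on the other side of the shared stretch, was at 427, 454 and 404 in Mrps12+/+ hearts, 484, 364 and 389 in Mrps12ep/ep hearts and 468, 441 and 375.5 in Mrps12ha/ha hearts. These ranges overlapped throughout, and the log2 fold changes against Mrps12+/+ were -0.01 ± 0.15 for Mrps12ha/ha and -0.07 ± 0.15 for Mrps12ep/ep. In the liver it was at 523, 555 and 474 in Mrps12+/+ mice, 638, 554 and 641 in Mrps12ep/ep mice and 564, 698 and 569 in Mrps12ha/ha mice. All 3 Mrps12ha/ha livers lay above all 3 Mrps12+/+ livers, by a narrow margin, while Mrps12ep/ep mouse 2 fell within the wild-type range. The liver log2 fold changes were 0.23 ± 0.13 (-0.06 to 0.53, adjusted p = 0.444) for Mrps12ha/ha and 0.24 ± 0.13 (-0.05 to 0.53, adjusted p = 0.560) for Mrps12ep/ep. The exact two-sided permutation test on the means gave p = 0.1 for Mrps12ha/ha against Mrps12+/+, the smallest that 3 against 3 mice allow. Of all liver genes 19.9% had groups that did not overlap in this comparison, and Sars2 was the only 1 of the 8 members. The hepatocyte marker sum was 4005672 to 5241998 in Mrps12+/+ and 5295192 to 6016633 in Mrps12ha/ha livers, with 1 of its 6 genes higher without overlap and none at 0. It was above Mrps12+/+ in Mrps12ep/ep livers as well, at 5539948.5 to 5990796, where the Sars2 log2 fold change was of similar size. Within Mrps12ha/ha livers mouse 2 had the highest Sars2 and the lowest hepatocyte sum. Within Mrps12ep/ep livers mouse 2 had the lowest of both, and within Mrps12+/+ livers mouse 3 did. Adipocyte markers summed to 10.5 to 432.7 in Mrps12+/+ and 0 to 2.4 in Mrps12ha/ha livers, and skeletal muscle markers to 47.3 to 15986 and 34.3 to 50.0, with 2 genes of each list lower without overlap. All 5 fibroblast markers had a negative log2 fold change, 2 of them without overlap. Of 45 tested markers of all lists 13 had an unadjusted p under 0.05 (28.9%, beside 14.1% of all liver genes), and their part in the Sars2 values was not tested. No liver member had groups without overlap for Mrps12ep/ep against Mrps12+/+ or for Mrps12ha/ha against Mrps12ep/ep, where 12.8% and 17.8% of all genes did.

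Within a mouse the ratio of Mrps12 to Sars2 does not depend on the size factor. It was 2.71, 2.32 and 2.54 in Mrps12+/+ hearts, 2.67, 2.93 and 2.89 in Mrps12ep/ep hearts and 2.85, 2.46 and 3.72 in Mrps12ha/ha hearts. The highest ratio belonged to Mrps12ha/ha mouse 3, and the groups overlapped. The mean ratio was 2.52 ± 0.195 (SD, n = 3) in Mrps12+/+, 2.83 ± 0.143 in Mrps12ep/ep and 3.01 ± 0.645 in Mrps12ha/ha hearts. On the log2 scale the exact permutation test gave p = 0.2 for Mrps12ep/ep and p = 0.3 for Mrps12ha/ha against Mrps12+/+, and p = 0.9 between the mutants. Without Mrps12ha/ha mouse 2 the difference of Mrps12ha/ha from Mrps12+/+ on that scale went from 0.24 to 0.37 (exact p = 0.1, the smallest that 2 against 3 allow), and without mouse 3, the mouse with the highest ratio, it was 0.07 (exact p = 0.5). The difference of Mrps12ha/ha from Mrps12ep/ep went from 0.07 to 0.20 without mouse 2 and to -0.09 without mouse 3. In the liver the ratios ran from 2.65 to 3.67, with means of 3.21 ± 0.408 in Mrps12+/+, 2.89 ± 0.293 in Mrps12ep/ep and 2.96 ± 0.261 in Mrps12ha/ha mice and exact p = 0.4, 0.5 and 0.7 for Mrps12ep/ep and Mrps12ha/ha against Mrps12+/+ and between the mutants. The mean ratio of both mutants lay above that of Mrps12+/+ in the heart and below it in the liver, and no exact test between groups passed the threshold, which 3 against 3 mice do not allow.

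The levels of Mrps12 and Sars2 across the 9 mice of a tissue were not tightly coupled. In the heart Pearson's r was 0.19 (exact permutation p = 0.610) and Spearman's rho 0.17 (exact p = 0.678). Without the 2 mice farthest from the median of Mrps12, Mrps12ha/ha mice 1 and 3, r was 0.55 (exact p = 0.208), and between deviations from the genotype means it was 0.25. Liver values were r = 0.50 (exact p = 0.164) and rho = 0.47 (exact p = 0.213), which fell to r = 0.04 (exact p = 0.930) without Mrps12+/+ mouse 1 and Mrps12ha/ha mouse 2 and to 0.23 between deviations. Mrps12 was correlated with each of the other 7 members in both tissues, 14 relations in all. The lowest Benjamini-Hochberg adjusted value was 0.326 for Pearson's r, shared by Hnrnpl (r = 0.71, exact p = 0.0350) and Ech1 (r = 0.67, exact p = 0.0465) in the heart, and 0.558 for Spearman's rho. The Hnrnpl relation rested on the 2 farthest mice, since r was -0.29 without them, and for Ech1 it was then 0.35.

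**Figure D2:**
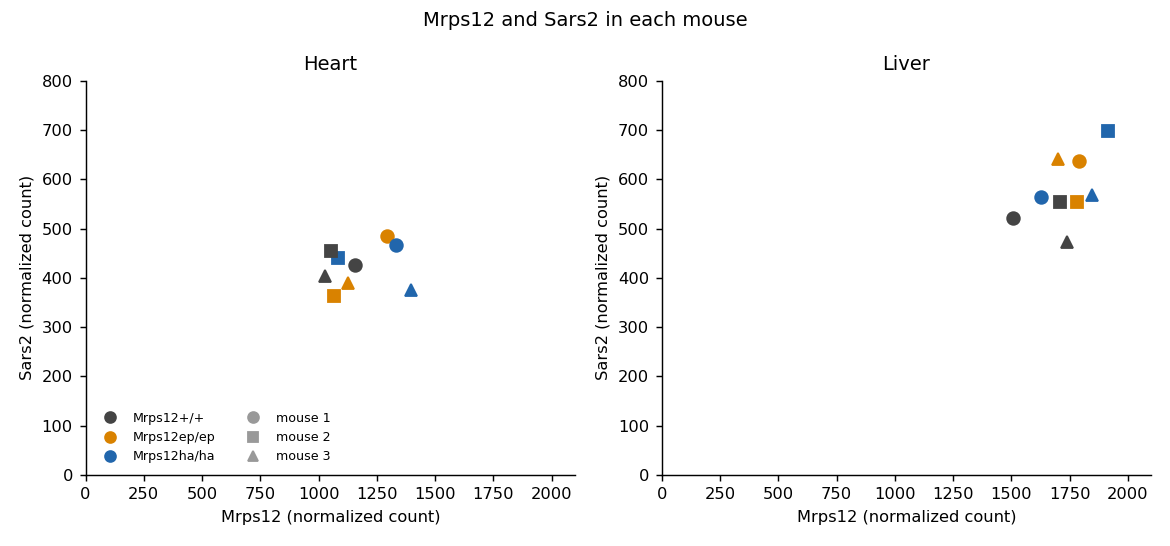
Normalized counts of Mrps12 (horizontal) against Sars2 (vertical) in each heart (left) and each liver (right), coloured by genotype and shaped by mouse number, with both axes from 0. The ratio stays between 2.32 and 3.72 in all 18 samples, while within a tissue the points show no line shared by all 9 mice.

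The genes with the profiles closest to Mrps12 and to Sars2 are named as a description, since among so many genes some will lie close to any. Among 11905 other heart genes with a mean of at least 100, the highest Pearson's r with Mrps12 over the 9 mice was that of Neurl1b (0.98), followed by Coro2b, Tdrd7, Irf1 and Ptprb, all at 0.98, and Sars2 ranked 4693. The 5 closest to Sars2 in the heart were Mrpl4 (0.93), Psma2 (0.91), Mrpl40 (0.91), Mrpl27 (0.89) and Aimp1 (0.88), and Mrps12 ranked 3325. In the liver, among 11302 others, Thyn1 (0.94), Hsd17b2 (0.93), Dym (0.92), Gtf3c5 (0.91) and 0610037L13Rik (0.90) were closest to Mrps12, and Sars2 ranked 1249. Closest to Sars2 in the liver were N4bp2 (0.96), Serpina1b (0.95), Rgn (0.95), Arhgap26 (0.95) and Zfp101 (0.95), and Mrps12 ranked 1794. All points of a tissue share its 9 libraries, so these values are descriptions. The heart values include Mrps12ha/ha mice 1 and 3, the 2 farthest from the median of Mrps12. Endothelial marker sums were 28664, 24769 and 22733 in Mrps12+/+, 32612, 28097 and 28817 in Mrps12ep/ep and 41034, 27157 and 34184 in Mrps12ha/ha hearts. All 4 of these markers had a positive log2 fold change in each mutant against Mrps12+/+. Their part in the heart values of Mrps12 was not tested.

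Hnrnpl and Ech1, adjacent genes on the plus strand, had higher values in all 3 Mrps12ha/ha hearts than in any other heart. Hnrnpl encodes a heterogeneous nuclear ribonucleoprotein that regulates alternative splicing. It was at 5038.5, 5406 and 4756 in Mrps12+/+ hearts, 4838, 5066 and 4682 in Mrps12ep/ep hearts and 9368, 5756 and 8243 in Mrps12ha/ha hearts. Mouse 2 stood closest to the other genotypes. The log2 fold change of Mrps12ha/ha was 0.59 ± 0.17 (0.22 to 0.97, adjusted p = 0.198) against Mrps12+/+ and 0.65 ± 0.17 (0.27 to 1.03, adjusted p = 0.232) against Mrps12ep/ep, about 1.51- and 1.57-fold, and exact p = 0.1 in each. Without mouse 2 it was 0.80 ± 0.10 (adjusted p = 0.00305) and 0.85 ± 0.10 (adjusted p = 0.00338), both past the threshold. In the liver Hnrnpl showed nothing of this. Its values were 3615, 4013 and 3724 in Mrps12+/+, 3528.5, 4033 and 3644 in Mrps12ep/ep and 3739, 3683 and 3902 in Mrps12ha/ha livers, and the log2 fold changes lay between -0.02 ± 0.08 and 0.02 ± 0.08. The difference between the tissues was not tested, because their tables were normalized separately.

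Ech1 encodes the dienoyl-CoA isomerase that moves double bonds so that unsaturated fatty acids can be broken down, and it was the member with the highest level in both tissues. Heart values were 50461, 48118 and 49047 in Mrps12+/+ mice, 58056, 28145 and 43060.5 in Mrps12ep/ep mice and 75351, 64246 and 71225 in Mrps12ha/ha mice. The Mrps12ha/ha hearts did not overlap those of either other genotype, and the Mrps12ep/ep hearts spread widely around the wild-type values. The log2 fold change of Mrps12ha/ha was 0.51 ± 0.25 (-0.04 to 1.07, adjusted p = 0.275) against Mrps12+/+ and 0.76 ± 0.25 (0.21 to 1.32, adjusted p = 0.240) against Mrps12ep/ep. Leaving out mouse 2 gave 0.57 ± 0.27 (adjusted p = 0.149) and 0.83 ± 0.27 (adjusted p = 0.0585), neither past the threshold. The wide Mrps12ep/ep spread entered the error of all 3 groups, since they share 1 estimate of it. Liver values were 13245, 20146 and 22528 in Mrps12+/+, 11472, 20863 and 13389.9 in Mrps12ep/ep and 18219, 16539 and 16923 in Mrps12ha/ha mice. These overlapped, with log2 fold changes from -0.30 ± 0.24 for Mrps12ep/ep against Mrps12+/+ to 0.22 ± 0.24 for Mrps12ha/ha against Mrps12ep/ep.

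Sums of cell-type markers also differed between the genotypes in the heart. The cardiomyocyte sum was 2163948 to 2475331 in Mrps12+/+, 1920978 to 2517233 in Mrps12ep/ep and 2547228 to 3369372 in Mrps12ha/ha hearts, so that all Mrps12ha/ha hearts were above the others, and 2 of its 6 genes did not overlap upwards and 1 downwards against Mrps12+/+. Other sums differed as well. Atrial markers (Myl7, Myl4, Sln, Nppa and Bmp10) summed to 4551 to 10279 against 8107.5 to 162740.4 in Mrps12+/+ and 1682 to 377881 in Mrps12ep/ep hearts, with overlap, and the Mrps12ep/ep heart with the highest sum, mouse 2, was the one with the lowest Ech1. Skeletal muscle markers summed to 3023 to 3391 against 7095 to 37698 in Mrps12+/+ and 7018 to 10567 in Mrps12ep/ep hearts, and mesothelial markers to 306 to 509.9 against 802 to 1572 and 600.2 to 2482, both without overlap. Fibroblast markers summed to 36044 to 37544 in Mrps12ha/ha hearts and to at least 39692 in Mrps12+/+ hearts, and erythroid markers to 199245 to 1411965 against 91865 to 235641. No marker of these lists was at 0 in every heart, and none was called by limma or limma-voom, while 12 of 47 marker genes of all lists had an unadjusted p under 0.05 for Mrps12ha/ha against Mrps12+/+ (25.5%, beside 19.7% of all heart genes). Their part in the Hnrnpl and Ech1 values was not tested.

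Sirt2 and Nfkbib are the other divergent pair. SIRT2 is an NAD+-dependent protein deacetylase found mainly in the cytosol. Its heart values were 3884.5, 3743 and 3727 in Mrps12+/+, 3871, 3345 and 3829.6 in Mrps12ep/ep and 2857, 3766 and 3166 in Mrps12ha/ha mice. Mrps12ha/ha mouse 2 lay inside the wild-type range and the other 2 below every mouse of the other genotypes. The log2 fold change against Mrps12+/+ was -0.22 ± 0.12 (-0.50 to 0.05, adjusted p = 0.313), and without mouse 2 it was -0.33 ± 0.10 (adjusted p = 0.0355), past the threshold. Against Mrps12ep/ep it was -0.18 ± 0.12 with all mice and -0.29 ± 0.10 (adjusted p = 0.0613) without mouse 2. In the liver the values ran from 2954 to 3573, all groups overlapped, and the log2 fold change of Mrps12ha/ha against Mrps12+/+ was within 0.22 of 0 by its 95% interval.

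NFKBIB is an inhibitor of NF-κB that holds the factor in the cytoplasm. Nfkbib ran from 616 to 775 over all 9 hearts, with a coefficient of variation of 8.01%, the smallest of the 8 there. Its heart log2 fold changes were -0.02 ± 0.12 for Mrps12ha/ha and -0.13 ± 0.12 for Mrps12ep/ep against Mrps12+/+. In the liver it ran from 930.5 to 1284, and the 2 mutants differed by 0.19 ± 0.12 (-0.08 to 0.45, adjusted p = 0.721).

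Rinl encodes a Ras and Rab interactor-like protein, a regulator of small GTPases in endocytosis. It was low, at 89.6, 132 and 104 in Mrps12+/+, 152, 168 and 154 in Mrps12ep/ep and 186, 112 and 144.5 in Mrps12ha/ha hearts. All Mrps12ep/ep hearts were above all Mrps12+/+ hearts, and the log2 fold change was 0.55 ± 0.23 (0.03 to 1.07, unadjusted p = 0.0394, adjusted p = 1 by limma). Rinl was the only member whose heart groups did not overlap for Mrps12ep/ep against Mrps12+/+, where 8.03% of all genes did not. The Mrps12ha/ha hearts overlapped both other groups, at 0.42 ± 0.23 (adjusted p = 0.312) against Mrps12+/+. In the liver 1 Mrps12+/+ mouse stood high, at 176 against 74.4 and 78.3 in the other 2, and the Mrps12ep/ep (92.5, 108 and 146.5) and Mrps12ha/ha (71.4, 59.4 and 107) values overlapped them.

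Fbxo17 encodes an F-box protein, the part of an SCF ubiquitin ligase that binds the substrate. It was the lowest of the 8, at 24.2 to 58.6 in the hearts and 15.5 to 60.7 in the livers, and its values rested on as few as 8 reads in a heart and 7 in a liver. All groups overlapped, and the 95% interval of its log2 fold change spanned -1.17 to 0.60 for Mrps12ha/ha against Mrps12+/+ in the heart and -0.80 to 1.36 in the liver. Changes of any size within these bounds were compatible with the values at this depth and spread, and the bounds are not a limit of detection.

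In all, 2 of 8 heart members had groups without overlap for Mrps12ha/ha against Mrps12+/+ and 2 of 8 against Mrps12ep/ep, Hnrnpl and Ech1 each time, and all were higher in Mrps12ha/ha. Over all heart genes the shares were 21.2% and 16.6%, so the members did not stand out by count. The median log2 fold change of the 8 was 0.11 for Mrps12ha/ha against Mrps12+/+, -0.05 for Mrps12ep/ep against Mrps12+/+ and 0.09 for Mrps12ha/ha against Mrps12ep/ep in the heart, beside -0.02, -0.01 and -0.02 over all tested genes. Liver medians of 0.05, 0.03 and 0.03 stood beside -0.02, -0.01 and -0.00. The 2 comparisons with Mrps12+/+ share the same wild-type mice.

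Divided by the length of their annotated exons, the members fell into clear steps. Per kilobase of exon in the heart, Ech1 (12323 to 32991) was above Mrps12 (988 to 1343) and Hnrnpl (787 to 1574), which overlapped each other. Sirt2 (567 to 771.5) lay below both and was followed without overlap by Nfkbib (284 to 357), Sars2 (109.7 to 146), Rinl (24.7 to 51.3) and Fbxo17 (9.69 to 23.5). In the liver the order was Ech1 (5023 to 9864), Mrps12 (1450 to 1841), then Sirt2 (587 to 709.7), Hnrnpl (593 to 677.5) and Nfkbib (429 to 592), of which Sirt2 overlapped both others, then Sars2 (143 to 211), Rinl (16.4 to 48.6) and Fbxo17 (6.21 to 24.3), the last 2 overlapping. Mrps12 was thus well above Sars2 per kilobase in all samples, although they share the stretch between their starts. As RPM, reads scaled to 1000000 reads on genes per sample, given side by side with no test, Mrps12 was at 31.7 to 42.2 in the hearts and 31.8 to 35.3 in the livers, Sars2 at 11.4 to 14.5 and 8.85 to 12.6, Hnrnpl at 144 to 284 and 66.2 to 80.1, and Ech1 at 960.1 to 2285 and 226 to 421.

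Each member was set beside genes of its own family, none of which was called by limma or limma-voom in any comparison with all mice. Of the 96 family genes tested, 15 had an unadjusted p under 0.05 by limma for Mrps12ha/ha against Mrps12+/+ hearts (15.6%, beside 19.7% of all heart genes), 1 for Mrps12ep/ep against Mrps12+/+ hearts (1.04%, beside 1.69%) and 19 for Mrps12ha/ha against Mrps12ep/ep hearts (19.8%, beside 17.9%). In the liver 6 did for Mrps12ha/ha against Mrps12+/+ (6.25%, beside 14.1%), 5 for Mrps12ep/ep against Mrps12+/+ (5.21%, beside 9.74%) and 5 for Mrps12ha/ha against Mrps12ep/ep (5.21%, beside 8.62%). Of 29 other genes of the small mitoribosomal subunit, 19 had a positive log2 fold change in Mrps12ha/ha against Mrps12+/+ hearts (median 0.18, from Mrps23 at -0.52 to Mrps21 at 0.45), and Mrps12 at 0.23 lay among them. Of these 29, 11 had Mrps12ha/ha hearts above all Mrps12+/+ hearts and none had them below, where 21.2% of all heart genes did not overlap in either direction. Without mouse 2, 7 were called, 2 higher and 5 lower, a share of 24.1% beside 27% of all genes. Against Mrps12ep/ep hearts with all mice, 2 of the 29 were higher and 1 lower without overlap, where 16.6% of all heart genes did not overlap. Without mouse 2, 12 of the 29 were called against Mrps12ep/ep, 9 higher and 3 lower, a share of 41.4% beside 23.2% of all genes. For Mrps12ep/ep against Mrps12+/+ hearts 26 of 29 were negative, with a median of -0.07. Of 16 other mitochondrial tRNA synthetases 12 were negative for Mrps12ha/ha (median -0.17, from Mars2 at -0.48 to Lars2 at 0.66), with Sars2 at -0.01. For Mrps12ep/ep against Mrps12+/+ hearts all 16 were negative (median -0.10), with Sars2 at -0.07.

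Ech1 and Hnrnpl went the other way from most of their families in Mrps12ha/ha hearts. Of 10 other enzymes of fatty acid oxidation that were tested, 9 had a negative log2 fold change against Mrps12+/+ (median -0.31, from Acadm at -0.71 to Eci1 at 0.08) where Ech1 had 0.51. With all mice none of the 10 had Mrps12ha/ha and Mrps12+/+ hearts without overlap, where 21.2% of all heart genes did. Without mouse 2 Acadm, Acadl, Hadha, Echs1 and Eci2 were called lower, 5 of 10 (50%, beside 27% of all genes in either direction), and Ech1 stood at 0.57. Against Mrps12ep/ep, also without mouse 2, only Acadm was called, lower, 1 of 10 (10%, beside 23.2%). Negative values were not particular to Mrps12ha/ha. For Mrps12ep/ep against Mrps12+/+ hearts all 10 were negative (median -0.23), as was Ech1 at -0.25. Acadm and Acadl encode acyl-CoA dehydrogenases, Hadha a subunit of the trifunctional protein, Echs1 a hydratase and Eci2 an isomerase. In the liver the median of these 10 was 0.01 for Mrps12ha/ha against Mrps12+/+, and against Mrps12ep/ep all 10 were positive (median 0.25), as was Ech1. Of 20 other hnRNPs and relatives 14 were negative in Mrps12ha/ha hearts (median -0.17, from Hnrnph2 at -0.40 to Ptbp1 at 0.33) where Hnrnpl had 0.59. For Mrps12ep/ep against Mrps12+/+ hearts 14 of the 20 were negative too (median -0.03), as was Hnrnpl at -0.06. Without mouse 2, 9 of these 20 were called (45%, beside 27%), Ptbp1, Hnrnph1 and Hnrnph3 higher and Hnrnpab, Syncrip, Hnrnpul1, Hnrnph2, Hnrnpr and Hnrnpul2 lower. Of 6 other sirtuins 4 were positive (median 0.23), with Sirt7 highest at 0.60 and Sirt5 lowest at -0.24, and Sirt7 was called higher without mouse 2 where Sirt2 was called lower. The list of 10 NF-κB and IκB genes had a median of 0.08, the 3 Rin genes of 0.47 and the 2 tested relatives of Fbxo17, Fbxo6 and Fbxo44, of -0.01.

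**Figure D3:**
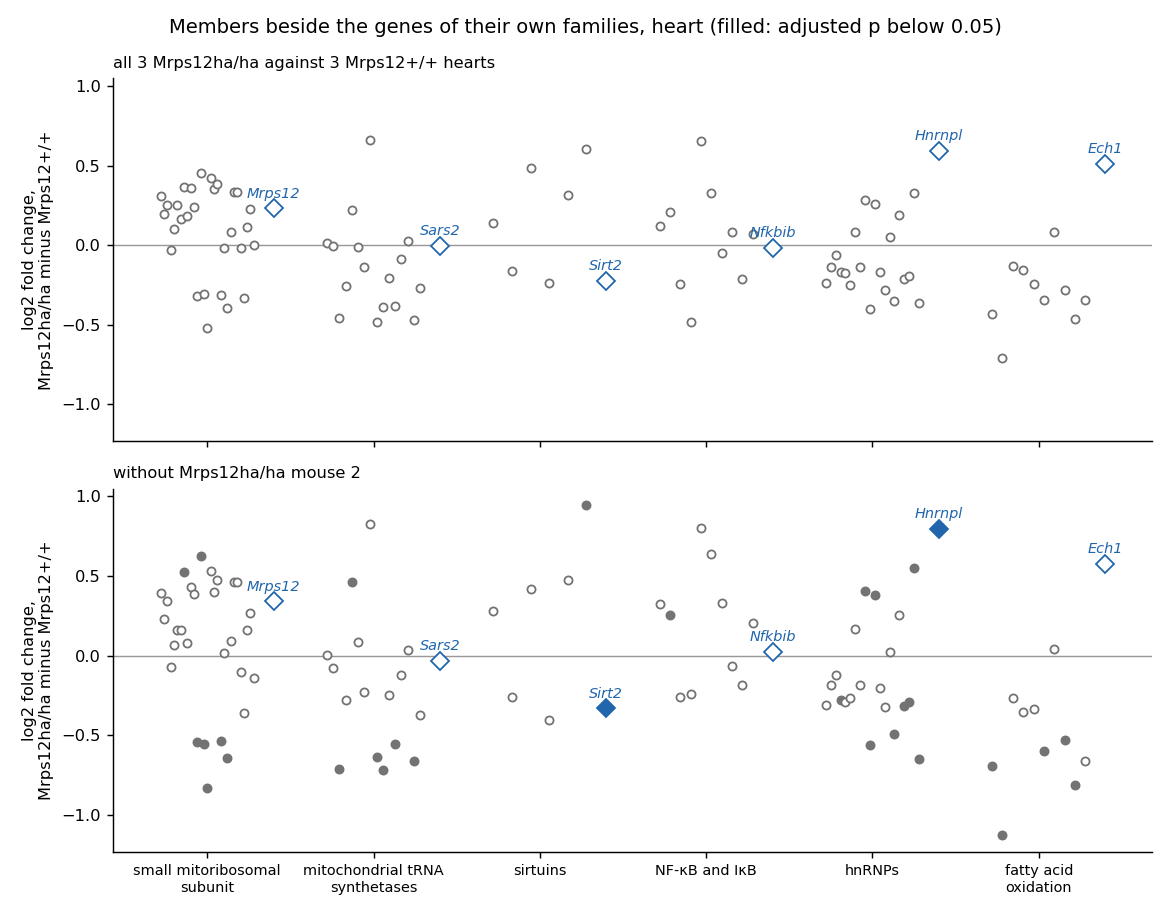
Log2 fold change in the heart (vertical axis, Mrps12ha/ha minus Mrps12+/+) of 6 members (blue diamonds) beside the other genes of their families (grey circles), with all mice (top) and without Mrps12ha/ha mouse 2 (bottom), where a filled symbol has an adjusted p below 0.05. Ech1 lies above all 10 other fatty acid oxidation genes and Hnrnpl above all 20 other hnRNPs in both panels, while Mrps12 and Sars2 lie within theirs.

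Around the members, 32 annotated genes start within 250 kb of the Mrps12 start, 15 of them tested in hearts and 14 in livers. The next gene after Ech1 on the same strand, Lgals4, encodes galectin-4, a lectin that binds β-galactosides. It was at 3657, 4859 and 4879 in Mrps12+/+ hearts, 5081, 2610.1 and 4028.5 in Mrps12ep/ep hearts and 13439, 7299.6 and 16552 in Mrps12ha/ha hearts. All 3 Mrps12ha/ha hearts were above the others, with mouse 2 again the lowest of them. The log2 fold change was 1.41 ± 0.32 (adjusted p = 0.185) against Mrps12+/+ and 1.64 ± 0.32 (adjusted p = 0.184) against Mrps12ep/ep, and without mouse 2 it was 1.75 ± 0.27 (adjusted p = 0.00451) and 1.99 ± 0.27 (adjusted p = 0.00384). Hnrnpl, Ech1 and Lgals4 are 3 consecutive annotated genes of the plus strand, and for all 3 the mean was highest in Mrps12ha/ha and lowest in Mrps12ep/ep hearts. In the liver Lgals4 ran from 869 to 2471, with overlap of all groups.

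On the other side, Samd4b, which encodes a sterile alpha motif protein that binds RNA, was lower in Mrps12ha/ha mice in both tissues. Its start lies 144 kb from that of Mrps12, and its annotated span (chr7:28399522-28598144) overlaps Pak4 on the same strand, so reads of overlapping exons may have been divided between them. The heart values were 1637, 1723 and 1824 in Mrps12+/+, 1739.5, 1848 and 1701 in Mrps12ep/ep and 1226, 1543 and 1251 in Mrps12ha/ha mice. In the liver they were 1729.5, 1539.6 and 2042, then 1586, 1614 and 1545, and 1259, 1323 and 1268.5 in the same order. No Mrps12ha/ha mouse reached the lowest value of another genotype in its tissue. The log2 fold change against Mrps12+/+ was -0.37 ± 0.12 (adjusted p = 0.210) in the heart with all mice, -0.48 ± 0.09 (adjusted p = 0.00701) there without mouse 2, and -0.45 ± 0.11 (adjusted p = 0.139) in the liver.

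**Figure D4:**
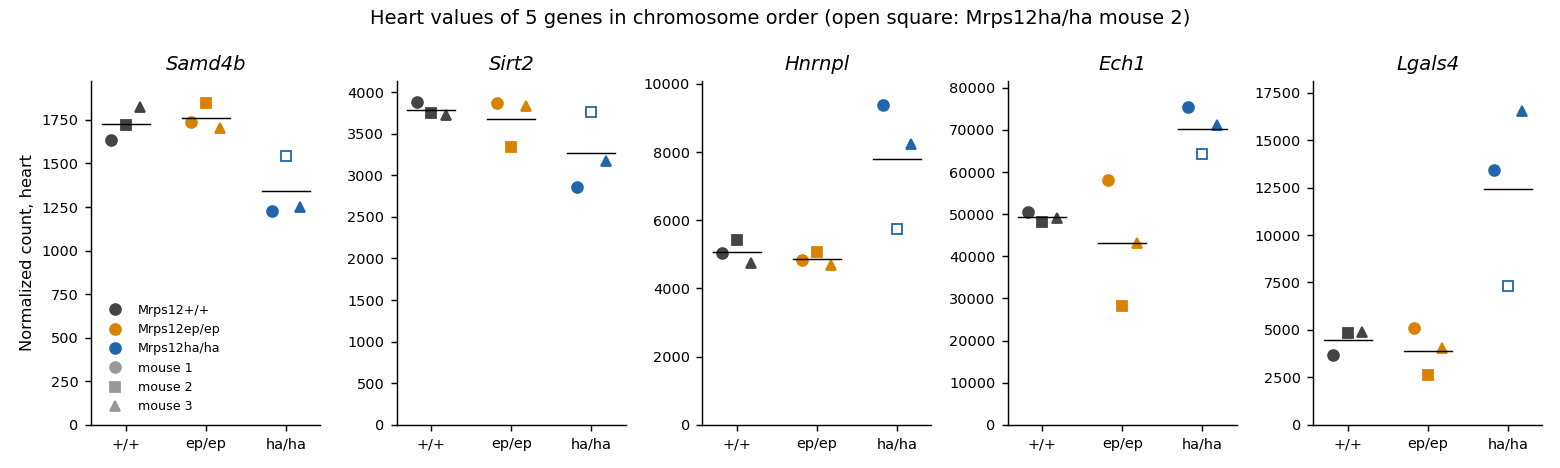
Normalized counts in each heart (vertical axes, from 0) of Samd4b, Sirt2, Hnrnpl, Ech1 and Lgals4 in chromosome order, by genotype, with a line at the mean of 3 mice. The open square is Mrps12ha/ha mouse 2, which lies nearest to the other genotypes in each of the 5 panels.

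The wider neighbourhood was counted in the same way. Within 250 kb the Mrps12ha/ha and Mrps12+/+ hearts did not overlap for 5 of 15 genes (33.3%). Within 1 Mb they did not for 11 of 51 (21.6%) and within 5 Mb for 40 of 190 (21.1%), beside 21.2% of all heart genes. In the liver the counts were 2 of 14, 7 of 49 and 39 of 194, beside 19.9% of all liver genes. Other comparisons lay further from their background in both directions, from 6 of 15 within 250 kb for Mrps12ha/ha against Mrps12ep/ep hearts (40%, beside 16.6%) to 1 of 49 within 1 Mb for Mrps12ep/ep against Mrps12+/+ livers (2.04%, beside 12.8%). The median log2 fold change within 1 Mb was 0.13 in the heart, where it was -0.02 over all genes, and 0.03 in the liver. Without mouse 2 the heart fit against Mrps12+/+ called 5 of 15 genes within 250 kb (33.3%). It called 8 of 51 within 1 Mb (15.7%) and 42 of 190 within 5 Mb (22.1%), beside 27% of all genes. With all mice none was called within 1 Mb by limma or limma-voom in any comparison of either tissue, and 7 of 51 in the heart and 6 of 49 in the liver had an unadjusted p under 0.05 for Mrps12ha/ha against Mrps12+/+ (13.7% and 12.2%, beside 19.7% and 14.1% of all genes). Within 5 Mb 1 gene was called, in the liver: Cyp2a22, a cytochrome P450 gene whose start lies 1802 kb from that of Mrps12 and which has close paralogs in its cluster, so that its reads are uncertain. It had 407, 640 and 1448 reads in Mrps12+/+ livers, 3, 0 and 0 in Mrps12ep/ep livers and 0, 1 and 1 in Mrps12ha/ha livers (adjusted p = 0.00842 for each mutant against the same Mrps12+/+ mice). With a filter at a mean of at least 50, and with limma-voom, no liver gene was called in these 2 comparisons.

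**Figure D5:**
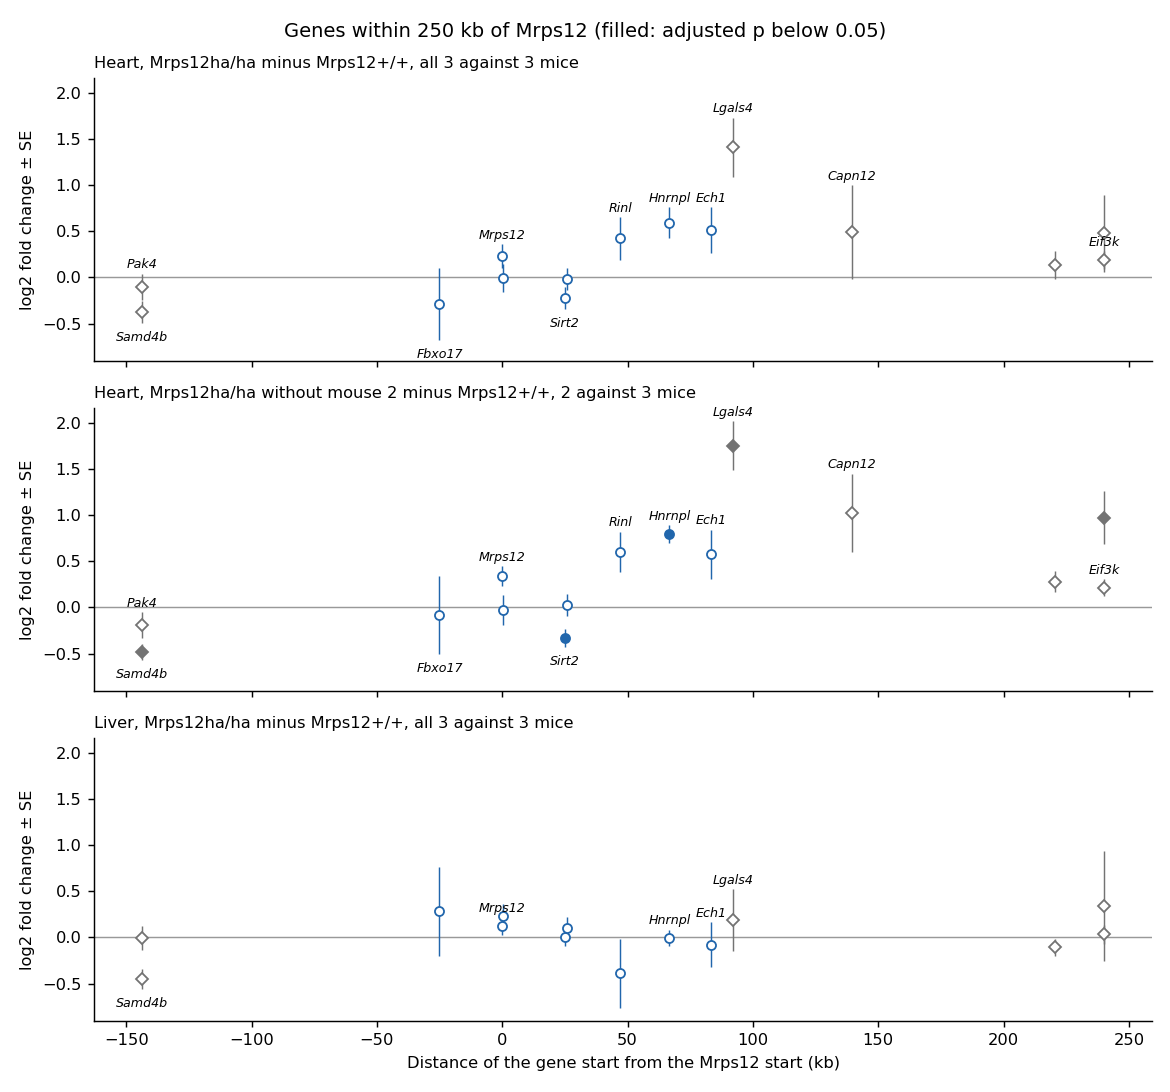
Log2 fold change ± SE (vertical axis, Mrps12ha/ha minus Mrps12+/+) of tested genes against the distance of their start from the Mrps12 start (horizontal axis, kb), for the heart with all mice (top), the heart without Mrps12ha/ha mouse 2 (middle) and the liver (bottom). Blue circles are the 8 members, grey diamonds other genes, and filled symbols have an adjusted p below 0.05: Samd4b, Sirt2, Hnrnpl, Lgals4 and Map4k1 in the middle panel and none in the others.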

How the data were processed

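Hearts and livers of 3 mice per genotype were used, 18 columns, each taken from its name and number as the pool of the 3 technical libraries of a mouse. The study's wording on pooling leaves this open, and n = 3 rests on it. The authors trimmed reads with Trim Galore 0.4.1 and cutadapt 1.18, counted them with Salmon 1.1.0 on GENCODE vM21 (GRCm38.p6), left out mitochondrial transcripts and deposited counts normalized with DESeq2, a table per tissue. Their tables of fold changes and p-values for 4 comparisons were not used. In each column 100% of low values were whole multiples of a step, which gave reads and depth.

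Log2(normalized count + 1) was fitted with limma 3.58.1 (lmFit, eBayes with a trend) in R 4.3.3, all 3 genotypes of a tissue in a fit, over genes with a mean of at least 10, with Benjamini-Hochberg adjustment and a threshold of 0.05. The fit was tested on simulated counts. Single values were compared with exact permutation tests. Python 3.11.15 did the rest. Named are the 8 members, genes within 250 kb, genes called within 5 Mb, the 5 closest profiles and, of each family list, the highest, the lowest and those called, except that the synthetases called without a mouse are not reported here. The members and lists were chosen with earlier results of these data known.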

Additional observations from a re-analysis of the deposited data

How the results depend on the processing

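The count of members called stayed at 0 in all 6 comparisons with a pseudocount of 0.5 or 8, without a filter, with a minimum mean of 50 (which left out Fbxo17), with re-centring, fits of only the 2 genotypes compared and limma-voom on recovered reads, the last chosen after seeing the data. Array weights, which gave Mrps12ha/ha mouse 2 the lowest weight of the hearts (0.167), called 4 members, Mrps12, Hnrnpl, Ech1 and Sirt2, for Mrps12ha/ha against Mrps12+/+ and 4 against Mrps12ep/ep in the heart. Leaving out each mouse in turn gave 0 to 2 calls for Mrps12ha/ha against Mrps12+/+ and 0 to 1 against Mrps12ep/ep in the heart, above 0 only without Mrps12ha/ha mouse 2. Over all heart genes the calls for these comparisons went from 5 and 4 to 5573 and 6314 with array weights and to 4330 and 3730 without that mouse. In the liver the 1 call went to 90 without Mrps12+/+ mouse 2 and 76 without Mrps12+/+ mouse 3 for Mrps12ha/ha against Mrps12+/+, to 68 without mouse 3 and 26 without mouse 1 for Mrps12ep/ep against Mrps12+/+, and to 18 for the mutants fitted alone. With the replicate block the members called remained 0, and all liver genes called were 7, 9 and 6 where they had been 1. Deviations of same-numbered mice correlated between -0.23 and 0.58 in the heart and -0.13 and 0.16 in the liver. For other pairs the ranges were -0.59 to 0.35 and -0.29 to 0.16. The closest mouse of another genotype had the same number in 6 of 18 and 5 of 18 cases. Deviations within a group of 3 mice sum to 0, so this comparison cannot settle whether the numbers pair the mice. The cause of the differences in calls was not tested. A window of 5 Mb in place of 1 Mb took the liver genes called from 0 to 1 for each mutant against Mrps12+/+, by adding more genes. The difference in the log2 ratio of Mrps12 to Sars2 ran from 0.07 to 0.37 for Mrps12ha/ha against Mrps12+/+ hearts and from -0.09 to 0.20 against Mrps12ep/ep hearts when each mouse was left out, both lowest without Mrps12ha/ha mouse 3. The planned count models, edgeR and DESeq2 on recovered reads, were not run, because the deposited columns did not meet the criterion set for treating recovered reads as counts (1 heart column has a step close to 1). Depth limits Fbxo17 and Rinl most, and 3 mice a group limit each permutation test between groups to p of 0.1 or more.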
